A study of Mus musculus with 24 samples.

Results

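The genes described here are 40 genes of the Wnt pathway, picked by name from the 39017 genes of the count tables: 4 ligands, 10 frizzled receptors, 5 co-receptors and other receptors, 7 secreted or membrane inhibitors, 9 cytoplasmic transducers and 5 nuclear effectors. Each symbol matched 1 Ensembl gene in the tables. They were followed in cells sorted from mouse cerebral cortex at embryonic stage E15.5, in 24 RNA-seq libraries that form 6 groups of 4. KO libraries carry the genotype Emx1Ires-Cre; Prdm16flox/flox, and WT libraries carry Prdm16 flox/flox, a label that names no Cre. Each genotype was sorted into PAX6+ cells (labelled radial glia), TBR2+ cells (labelled intermediate progenitor cells) and PAX6-TBR2- cells (labelled cortical neurons). Emx1 drives the recombinase in progenitors of the dorsal telencephalon and their progeny, so interneurons, vessels and blood in the same tissue are not its main targets. The Cre allele goes with the KO label throughout, so its presence and the loss of Prdm16 cannot be told apart. The series text calls the 4 libraries of a group biological replicates without naming their source animals. The p-values therefore speak of the scatter among the sequenced libraries, part of which may be technical.

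Wnt proteins are secreted ligands that bind frizzled receptors. In the canonical branch a frizzled pairs with the co-receptor Lrp5 or Lrp6, Dishevelled proteins are recruited, the complex of Axin and Apc stops degrading β-catenin, and β-catenin joins Tcf/Lef factors on DNA. Other branches run through Ror2, Ryk and formins such as the Daam proteins, and act on cell polarity and the cytoskeleton. Secreted Sfrp and Dickkopf proteins, the Kremen receptors and the ubiquitin ligases Znrf3 and Rnf43 restrain the pathway. In the embryonic cortex canonical Wnt signalling is known for its part in progenitor self-renewal and in neuronal differentiation, and the ligands Wnt7a and Wnt7b also act on the growth of brain vessels.

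All but 1 of the libraries held 4.95 to 12.6 M counts, the deepest (30.0 M) being WT replicate 4 of the PAX6-TBR2- cells, and the 40 genes together took 0.219% to 0.465% of a library's counts. Prdm16 itself averaged 187 ± 27.1 CPM in KO and 252 ± 34.1 CPM in WT PAX6+ cells (SD, n = 4 each; CPM, reads scaled to a common library size by TMM over all 24 libraries). Its log2 fold change in PAX6+ cells was -0.43 (SE 0.12, edgeR adjusted p = 0.0580), and the groups overlapped there and in the other populations. Counts are summed over the whole gene and the labels do not say which exon was deleted, so these counts do not show how complete the deletion was. The labelled cell types were checked against markers: the summed level of 8 radial glia genes was 3227 to 3827 CPM in KO and 2839 to 3314 CPM in WT PAX6+ libraries, and at most 711 CPM in any other library. The summed level of 6 intermediate progenitor genes was 1368 to 1726 CPM in KO and 1509.5 to 1852 CPM in WT TBR2+ libraries. The 8 neuron genes summed to 8255 to 9087 CPM in KO and 8358 to 9575 CPM in WT PAX6-TBR2- libraries, but also to 5888 to 8117 CPM in KO and 6189.8 to 7821 CPM in WT TBR2+ libraries. Sorted populations are mixtures, so fewer cells of a type and less RNA per cell cannot be told apart. Population also goes with the prefix of the library names, so differences between populations cannot be told apart from handling. Mitochondrial genes, whose share of reads is often read as a sign of RNA quality, took 11.3% to 23.98% of the counts in KO and 14.4% to 20.2% in WT PAX6+ libraries, 30.5% to 39.3% in KO and 24.7% to 33.1% in WT TBR2+ libraries, and 21.8% to 24.4% in KO and 20.4% to 26.1% in WT PAX6-TBR2- libraries. WT PAX6+ libraries did not overlap in this share with WT TBR2+ libraries, nor, by a small gap (20.2% against 20.4%), with WT PAX6-TBR2- libraries. The part of this share in the differences between populations or genotypes was not tested.

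The central question of the design is what changes without Prdm16 in each population. A few Wnt genes changed, and most did not pass the test. In PAX6+ cells 37 of the 40 genes had enough reads to be tested, and 4 passed an adjusted p of 0.05 in edgeR: Kremen1, Fzd7 and Daam2 were higher and Fzd5 was lower in KO. Over all genes tested in PAX6+ cells 3.64% passed, 2.45% higher and 1.19% lower in KO. In TBR2+ cells Daam2 and Kremen1, 2 of 33 tested, were higher in KO, against 1.76% of all genes (1.1% higher and 0.662% lower). The count over all genes in TBR2+ cells, 223, moved with single libraries, being 121 without WT replicate 3, 137 without WT replicate 1, 139 and 142 without KO replicates 2 and 3, and 420 without KO replicate 1. DESeq2 called 4 of 33 members there, adding Nkd1 and Tcf7l1, against 2.86% of all genes. Without a filter on low counts edgeR called 6 of 40, adding Nkd1, Tcf7l1, Lef1 and Lrp5, against 2.92%. A fit with the replicate number as a block called the same 6 genes, of 33 tested, against 5.68% of all genes in that fit. In PAX6-TBR2- cells 0 of 33 passed in edgeR, against 0.00774% of all genes. An unadjusted p under 0.05 was found for 8 of the 33, against a lower share, 6.61%, of all genes. DESeq2, which called 0.193% of all genes, and limma-voom also called 0 members there. The median log2 fold change of the tested members was -0.086 in PAX6+ cells, -0.004 in TBR2+ cells and -0.14 in PAX6-TBR2- cells, against medians over all genes tested of 0.002, 0.002 and 0.00071.

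Same-numbered KO and WT libraries of the PAX6+ population deviated together from their group means, and a fit with the replicate number as a block called 8 of 37 members there, against 7.35% of all genes in the same fit. These were the 4 named above, with Fzd1 (log2 fold change -0.42, edgeR adjusted p = 0.00277), Fzd8 (-0.42, adjusted p = 0.0137), Sfrp2 (-0.38, adjusted p = 0.0254) and Rnf43 (-0.81, adjusted p = 0.0489), all lower in KO. DESeq2 called the same 8, against 4.81% of all genes. In the edgeR fit without the block the adjusted p of these 4 added genes ran from 0.0655 for Fzd8 to 0.102 for Rnf43.

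**Figure D1:**
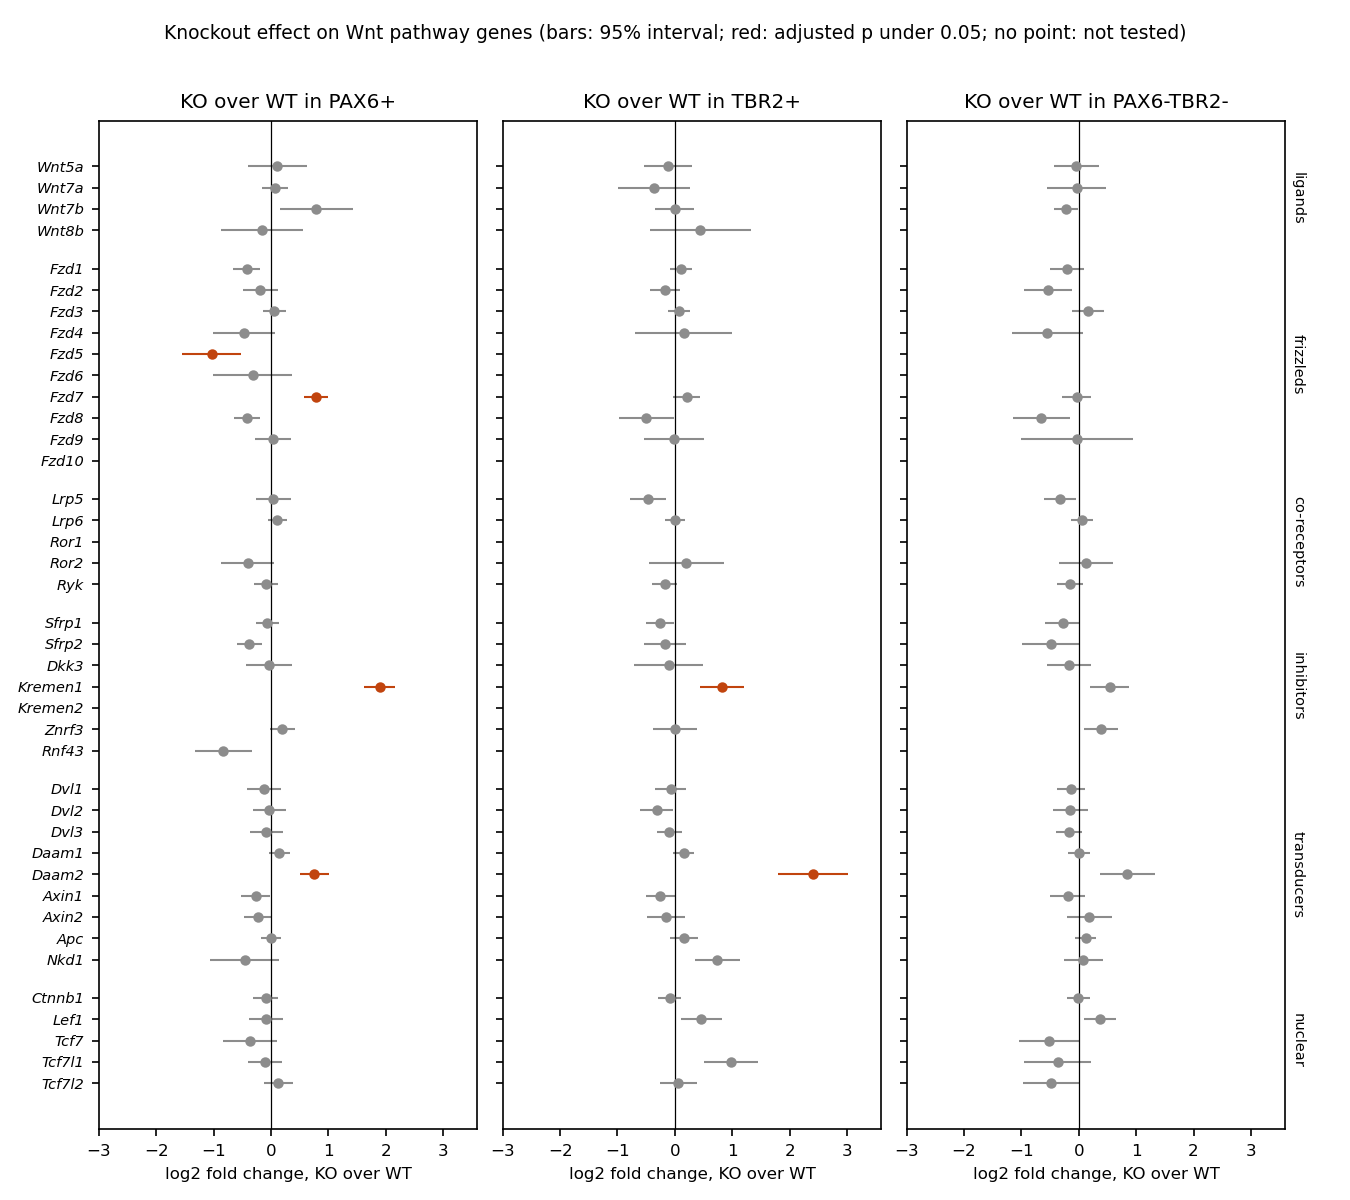
Log2 fold change, KO over WT, of each Wnt gene in PAX6+, TBR2+ and PAX6-TBR2- cells (x axis; genes by role down the page), as the edgeR estimate with bars of the 95% interval. Red points passed an adjusted p of 0.05: Kremen1, Fzd7, Daam2 and Fzd5 in PAX6+ cells, and Daam2 and Kremen1 in TBR2+ cells.

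Between WT populations the same genes differed widely. Of 37 tested, 29 differed between WT PAX6+ and WT TBR2+ cells, 20 higher and 9 lower in PAX6+, against 63.2% of all genes (32.2% higher and 31% lower). WT PAX6+ and WT PAX6-TBR2- cells differed in 30 of 37, 24 higher and 6 lower in PAX6+, against 66.6% of all genes (33.7% higher and 32.9% lower). WT TBR2+ and WT PAX6-TBR2- cells differed in 24 of 33, 18 higher and 6 lower in TBR2+, against 49% of all genes (23.4% higher and 25.6% lower). The member medians on the log2 scale were 0.68, 1.11 and 0.54 in these 3 comparisons, against 0.018, 0.015 and 0.007 over all genes. All 6 inhibitors that could be tested were higher in WT PAX6+ cells than in WT TBR2+ cells and than in WT PAX6-TBR2- cells. Between WT TBR2+ and WT PAX6-TBR2- cells 5 inhibitors could be tested, and 3 passed, all higher in TBR2+. The filter on low counts lets in a gene with enough reads in 1 group alone. For genes with few reads outside PAX6+ cells, such as Rnf43 and Fzd5, the direction in these counts was therefore largely set by the filter.

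**Figure D2:**
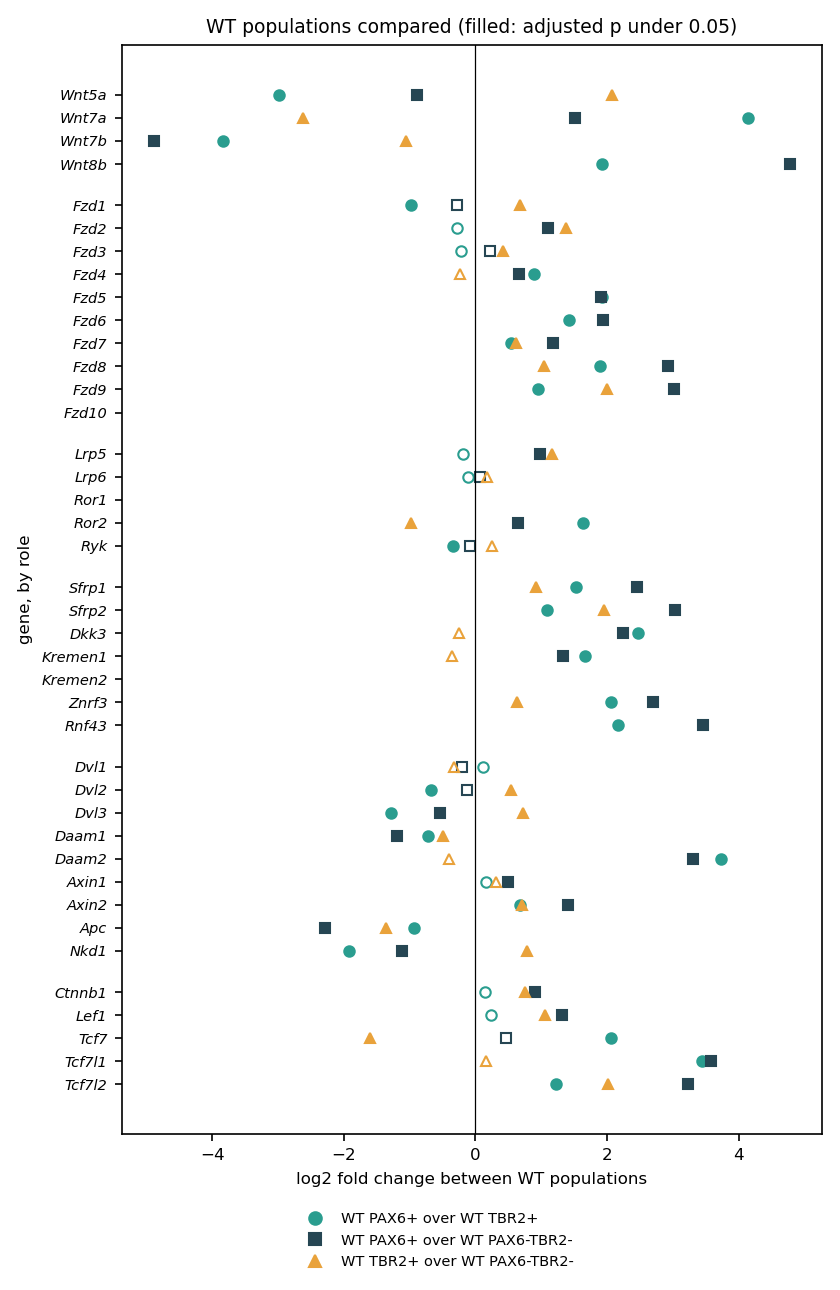
Log2 fold change between WT populations (x axis) for each Wnt gene, by role down the page, with 1 symbol per comparison, filled where the edgeR adjusted p was under 0.05. The 6 tested inhibitors lie right of 0 for both PAX6+ comparisons, and Wnt7b lies at -4.88 for PAX6+ over PAX6-TBR2-.

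The 4 ligand genes differed in which population held most of their reads. Wnt7a, a canonical ligand, was the most abundant ligand per kilobase in PAX6+ cells, at 16.5 ± 1.62 RPKM in KO and 15.8 ± 1.97 RPKM in WT (SD, n = 4 each; RPKM, the scaled CPM per kilobase of exon). In TBR2+ cells it averaged 0.691 RPKM in KO and 0.883 RPKM in WT, and in PAX6-TBR2- cells 5.25 RPKM in KO and 5.26 RPKM in WT. In WT the log2 fold change of Wnt7a was 4.14 (SE 0.18, edgeR adjusted p = 2.44e-12) for PAX6+ over TBR2+ and 1.51 (SE 0.18, adjusted p = 2.49e-06) for PAX6+ over PAX6-TBR2-. Its paralog Wnt7b was lowest in PAX6+ cells, while both were lower in WT TBR2+ than in WT PAX6-TBR2- cells (-2.61 for Wnt7a, adjusted p = 1.15e-06, and -1.06 for Wnt7b, adjusted p = 4.28e-05). Wnt7b averaged 1.65 RPKM in KO and 0.954 RPKM in WT PAX6+ cells, 13.7 RPKM in KO and 13.7 RPKM in WT TBR2+ cells, and 24.2 RPKM in KO and 28.4 RPKM in WT PAX6-TBR2- cells.

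In single libraries Wnt7b had 5.67, 6.27, 15.3 and 5.18 CPM in KO PAX6+ cells, against 3.06, 5.12, 5.84 and 4.67 CPM in WT PAX6+ cells. Replicate 3 stood apart among the KO PAX6+ libraries, and the genotypes overlapped. The 4 WT PAX6-TBR2- libraries had 161, 137, 135 and 125 CPM, all above every PAX6+ library. In WT the log2 fold change of PAX6+ over PAX6-TBR2- was -4.88 (SE 0.17, edgeR adjusted p = 2.35e-12). For KO over WT in PAX6+ cells it was 0.79 (SE 0.32, adjusted p = 0.303).

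Wnt5a, known for β-catenin-independent signalling, was highest in TBR2+ cells, at 5.75 ± 0.930 RPKM in KO and 6.23 ± 2.19 RPKM in WT (SD, n = 4 each), with 0.815 to 1.47 RPKM in the other groups. In TBR2+ libraries it had 35.7 to 52.9 CPM in KO and 27.3 to 65.8 CPM in WT. Wnt8b, a ligand of the medial cortical wall, averaged 2.20 RPKM in KO and 2.51 RPKM in WT PAX6+ cells, and 0.0911 RPKM in KO and 0.121 RPKM in WT PAX6-TBR2- cells, where it had too few reads for a KO test. All 4 ligands were tested in KO against WT in PAX6+ and TBR2+ cells and 3 in PAX6-TBR2- cells, and none passed in edgeR. KO and WT libraries overlapped for each ligand in each population where it was tested. For Wnt5a, Wnt7a, Wnt7b and Wnt8b the log2 fold changes were 0.11, 0.073, 0.79 and -0.16 in PAX6+ cells and -0.12, -0.36, -0.004 and 0.45 in TBR2+ cells.

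**Figure D3:**
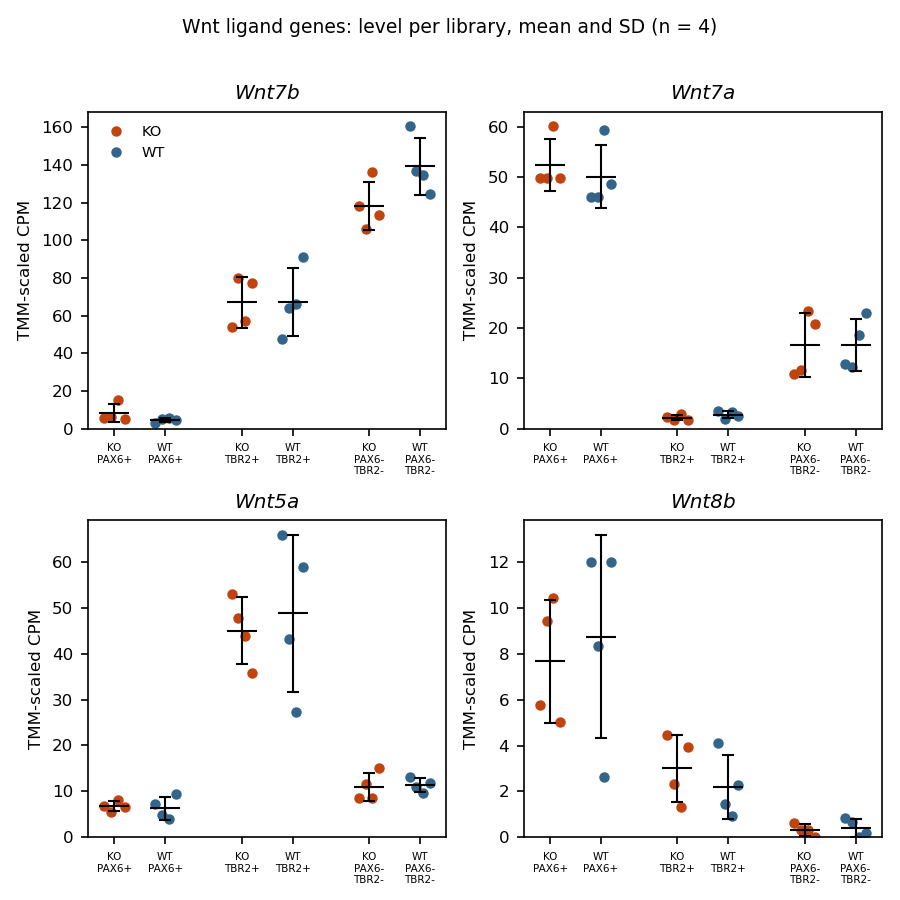
TMM-scaled CPM (y axis) of the 4 Wnt ligand genes in each of the 24 libraries, by genotype and population; points are libraries, bars the mean and SD of 4. Wnt7a and Wnt8b are highest in PAX6+ cells, Wnt5a in TBR2+ cells and Wnt7b in PAX6-TBR2- cells, and KO and WT points overlap within each population.

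Frizzleds are the receptors that bind Wnt proteins. Fzd1, Fzd2 and Fzd3 were above 4 RPKM in all groups, while Fzd4, Fzd5, Fzd6 and Fzd10 stayed below 1 RPKM in every group. Fzd7 was the frizzled that rose in KO PAX6+ cells. Fzd7 (ENSMUSG00000041075, chromosome 1, 59482424 to 59486955, plus strand) had 81.2, 73.3, 83.2 and 72.8 CPM in KO PAX6+ libraries, against 39.8, 48.8, 45.2 and 46.7 CPM in WT PAX6+ libraries. Every KO library was above every WT library. Its log2 fold change was 0.79 (SE 0.11, edgeR adjusted p = 0.000309), a 1.72-fold level, and it stayed called in all 8 fits without 1 library. Per kilobase Fzd7 reached 17.1 RPKM in KO PAX6+ cells, the highest of the 10 frizzleds there, and 9.96 RPKM in WT, where Fzd1 was highest at 17.6 RPKM.

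In TBR2+ cells Fzd7 had 34.0, 33.4, 37.7 and 36.6 CPM in KO libraries and 33.2, 33.9, 26.0 and 29.0 CPM in WT libraries, which overlapped (log2 fold change 0.21, 95% interval -0.028 to 0.44, edgeR adjusted p = 0.545). In PAX6-TBR2- cells it averaged 19.3 ± 2.08 CPM in KO and 19.8 ± 0.609 CPM in WT (SD, n = 4 each; log2 fold change -0.035, 95% interval -0.29 to 0.22, edgeR adjusted p = 0.969). In WT it was higher in PAX6+ cells than in TBR2+ cells by 0.55 (SE 0.12, adjusted p = 0.000667) on the log2 scale.

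Fzd5 was the frizzled that passed as lower in KO PAX6+ cells in edgeR with low counts filtered and no replicate block, from few reads. Fzd5 (ENSMUSG00000045005, chromosome 1, 64730558 to 64737751, minus strand) had 1.96, 1.76, 2.02 and 2.04 CPM in KO PAX6+ libraries, against 3.76, 4.03, 4.71 and 3.45 CPM in WT PAX6+ libraries. These values rest on 19 to 24 reads per KO library and 34 to 75 reads per WT library. The groups did not overlap, and the log2 fold change was -1.03 (SE 0.26, edgeR adjusted p = 0.0349). The call was lost without any 1 of the 8 libraries (adjusted p 0.0543 to 0.133, highest without WT replicate 3), without a filter on low counts (0.0544) and with all 24 libraries in 1 fit (0.0558). In TBR2+ and PAX6-TBR2- cells Fzd5 had 1 to 24 reads per library and was not tested.

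The stretches upstream of the RefSeq starts of these 2 receptor genes (GRCm38.p6; 250 bases, 5′ to 3′ on the gene's strand) are shown because the genes moved in opposite directions in the same cells. They lie at chr1:59481897-59482146 on the plus strand for Fzd7 and at chr1:64737751-64738000 on the minus strand for Fzd5. Capitals mark matches to the Tcf/Lef motif, searched as CTTTGAT and CTTTGTT on both strands.
Fzd7: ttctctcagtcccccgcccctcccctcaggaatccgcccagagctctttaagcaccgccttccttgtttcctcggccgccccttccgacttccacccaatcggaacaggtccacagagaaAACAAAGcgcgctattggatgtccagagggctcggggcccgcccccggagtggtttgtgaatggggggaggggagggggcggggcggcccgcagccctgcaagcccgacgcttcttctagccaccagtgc
Fzd5: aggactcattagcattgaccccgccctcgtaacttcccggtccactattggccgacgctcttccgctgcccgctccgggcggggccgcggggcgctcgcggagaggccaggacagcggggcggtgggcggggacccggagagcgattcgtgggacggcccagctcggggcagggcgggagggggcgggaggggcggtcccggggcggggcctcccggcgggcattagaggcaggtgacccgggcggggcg
The Fzd7 stretch held 1 match, AACAAAG, the reverse complement of CTTTGTT, at position -130 from the start, and the Fzd5 stretch held 0. A match stood in 8.06% of the 32851 promoters that RefSeq lists here, and in 2 of the 35 promoters listed for 26 of the 40 Wnt genes. G and C made up 65.2% of the Fzd7 stretch, with 17 CpG, and 76.4% of the Fzd5 stretch, with 32 CpG, against medians of 52.4% and 6 CpG over the table. A match is a string of letters and does not show binding.

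The other frizzleds did not pass in KO in edgeR with low counts filtered and no replicate block. In PAX6+ cells Fzd1 had 49.2, 59.9, 49.2 and 60.7 CPM in KO libraries, against 62.0, 73.1, 75.6 and 84.7 CPM in WT libraries. Fzd8 had 31.6, 38.9, 42.0 and 38.0 CPM in KO, against 53.6, 51.2, 50.8 and 46.3 CPM in WT. Neither gene's groups overlapped, and their adjusted p were 0.0798 for Fzd1 and 0.0655 for Fzd8 in that fit. Both passed, lower in KO, with DESeq2 and with the replicate block. Without a filter on low counts Fzd1 passed (0.0272). In PAX6-TBR2- cells 6 of the 7 frizzleds tested lay below 0, from -0.029 for Fzd9 to -0.65 for Fzd8, with a median of -0.20, and none passed in that fit. Markers of several cell types lay mostly to 1 side with genotype in these cells, with none passing. Intermediate progenitor markers were below 0 in 5 of 5 tested of 6 (median -0.31), and interneuron markers above 0 in 8 of 9 (median 0.34). Their summed levels were 154 to 263 CPM in KO and 190.0 to 339 CPM in WT for intermediate progenitors, and 521 to 1253 CPM in KO and 399 to 1088 CPM in WT for interneurons, with no gene of either list at 0 in a whole group. Their part in the frizzled values was not tested.

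Between WT populations Fzd4, Fzd5, Fzd6, Fzd7, Fzd8 and Fzd9 were higher in PAX6+ cells than in each other population. Only 7 frizzleds had enough reads to be tested between WT TBR2+ and WT PAX6-TBR2- cells, against 9 in each PAX6+ comparison. For those let in by PAX6+ reads alone, such as Fzd5, the direction was largely set by the filter. Each of the 6 named passed. Of these Fzd4 passed narrowly (edgeR adjusted p = 0.0369 over TBR2+ and 0.0467 over PAX6-TBR2-). Its call over TBR2+ was lost with the replicate block (adjusted p = 0.0503). It was also lost without WT PAX6+ replicate 2 or 4 or WT TBR2+ replicate 3 or 4 (adjusted p up to 0.135). Its call over PAX6-TBR2- was lost with DESeq2, with DESeq2's size factors in edgeR, with the replicate block and without a filter. That call was also lost without WT PAX6+ replicate 2 or 4 or WT PAX6-TBR2- replicate 1, 3 or 4 (up to 0.160). Fzd9, with the largest PAX6+ over PAX6-TBR2- difference of the frizzleds, had 15.9, 17.3, 11.1 and 13.9 CPM in WT PAX6+ libraries, 9.40, 8.64, 5.32 and 6.22 CPM in WT TBR2+ libraries and 2.07, 3.72, 1.05 and 1.22 CPM in WT PAX6-TBR2- libraries. The 3 sets of values did not overlap. The log2 fold change of PAX6+ over PAX6-TBR2- was 3.01 (SE 0.31, edgeR adjusted p = 4.04e-07). In KO PAX6+ libraries Fzd9 had 13.4 to 16.1 CPM, within the WT range. Fzd1 went the other way, at 17.6 RPKM in WT PAX6+ cells and 34.2 RPKM in WT TBR2+ cells (PAX6+ over TBR2+ -0.97, SE 0.11, adjusted p = 8.41e-07). Fzd3 stayed between 10.8 and 15.4 RPKM in the 6 groups. Fzd10 had at most 10 reads in any library and was tested in none of the comparisons.

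Co-receptors and the other receptors showed no KO call in any population in edgeR with low counts filtered and no replicate block. Lrp6, a canonical co-receptor, lay at 13.3 to 15.2 RPKM in all 6 groups. Its KO log2 fold changes were 0.11 in PAX6+ cells (95% interval -0.056 to 0.28), -0.00026 in TBR2+ cells (-0.17 to 0.17) and 0.060 in PAX6-TBR2- cells (-0.13 to 0.25). Lrp5, the other co-receptor, had 49.2, 41.4, 59.2 and 40.5 CPM in WT PAX6+ libraries, 58.8, 52.4, 55.7 and 47.0 CPM in WT TBR2+ libraries and 21.3, 22.8, 27.0 and 23.6 CPM in WT PAX6-TBR2- libraries. The PAX6-TBR2- group was below the other two in every library (PAX6+ over PAX6-TBR2- 0.99, SE 0.14, edgeR adjusted p = 1.25e-05). In KO TBR2+ cells Lrp5 had 42.5, 34.7, 50.5 and 27.8 CPM, against 47.0 to 58.8 CPM in WT TBR2+ cells. The groups overlapped, and the log2 fold change of -0.47 (SE 0.16) did not pass (edgeR adjusted p = 0.211). Lrp5 did pass there without a filter on low counts (0.0166) and with the replicate block.

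Ror2, a receptor for Wnt5a, averaged 2.35 RPKM in WT PAX6+ cells, 0.742 RPKM in WT TBR2+ and 1.42 RPKM in WT PAX6-TBR2- cells. It differed in all 3 WT comparisons, with 1.63 (SE 0.25, edgeR adjusted p = 2.45e-05) for PAX6+ over TBR2+. The TBR2+ over PAX6-TBR2- call (adjusted p = 0.0150) was lost without WT PAX6-TBR2- replicate 4 (0.0692). Ryk, a receptor with a Wnt-binding domain, lay between 10.4 and 13.9 RPKM in the 6 groups. Ror1 had at most 9 reads in any library and was not tested.

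Among the inhibitors Kremen1 showed the largest KO change of the tested members in PAX6+ cells. It encodes a transmembrane receptor for Dickkopf proteins that helps to clear Lrp5 and Lrp6 from the cell surface. Kremen1 (ENSMUSG00000020393, chromosome 11, 5191552 to 5261558, minus strand) had 134, 104, 157 and 106 CPM in KO PAX6+ libraries, against 37.1, 34.8, 30.2 and 32.7 CPM in WT PAX6+ libraries. All 4 KO libraries were far above all 4 WT libraries. The log2 fold change was 1.90 (SE 0.14, edgeR adjusted p = 4.19e-07), a 3.73-fold level, and it stayed between 1.77 and 1.98 when any 1 library was left out. Per kilobase it averaged 16.2 RPKM in KO and 4.37 RPKM in WT PAX6+ cells, which placed it next to Sfrp1 among the inhibitors in KO.

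In TBR2+ cells Kremen1 had 18.4, 13.1, 22.9 and 20.4 CPM in KO libraries, against 12.3, 9.13, 8.43 and 12.1 CPM in WT libraries. The groups did not overlap, but the lowest KO and the highest WT library lay close together. The log2 fold change was 0.82 (SE 0.19, edgeR adjusted p = 0.0466). The call was lost with limma-voom (adjusted p = 0.0720), with the reads recovered from the normalized table (0.0944) and without KO replicate 3 or 4 or any 1 of the 4 WT libraries (0.0562 to 0.168). In PAX6-TBR2- cells Kremen1 had 22.3, 17.0, 20.2 and 17.9 CPM in KO libraries and 13.2, 18.1, 11.0 and 11.6 CPM in WT libraries. There the groups overlapped through WT replicate 2, and the log2 fold change of 0.54 (SE 0.17) did not pass (edgeR adjusted p = 0.561).

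Znrf3, which lies next to Kremen1 on chromosome 11, encodes a ubiquitin ligase that removes frizzleds from the surface and is itself known as a target of β-catenin. Znrf3 averaged 121 ± 11.2 CPM in KO and 106 ± 13.0 CPM in WT PAX6+ cells (SD, n = 4 each), and the groups overlapped (log2 fold change 0.20, SE 0.11, edgeR adjusted p = 0.543). In WT it was 2.06 higher on the log2 scale in PAX6+ than in TBR2+ cells (SE 0.15, adjusted p = 1.82e-09). The related ligase Rnf43 had 3.40, 2.91, 3.77 and 2.55 CPM in KO PAX6+ libraries, against 7.26, 3.96, 5.27 and 6.20 CPM in WT PAX6+ libraries, without overlap. WT TBR2+ libraries had 1.67, 1.14, 1.10 and 0.982 CPM and WT PAX6-TBR2- libraries 0.621, 0.507, 0.394 and 0.503 CPM of Rnf43. WT PAX6+ libraries stood above both, at 3.45 (SE 0.33, adjusted p = 1.91e-07) over PAX6-TBR2-.

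Sfrp1, a secreted protein that binds Wnt ligands and frizzleds, was the most abundant of the 40 genes per kilobase in PAX6+ cells. It averaged 177 ± 26.1 RPKM in KO and 186 ± 15.1 RPKM in WT PAX6+ cells (SD, n = 4 each), 53.4 RPKM in KO and 63.8 RPKM in WT TBR2+ cells, and 27.5 RPKM in KO and 33.4 RPKM in WT PAX6-TBR2- cells. Its KO log2 fold changes were -0.064, -0.26 and -0.28 in these populations, and none passed. Sfrp2, of the same family, had 25.4 to 31.3 CPM in KO and 36.3 to 37.5 CPM in WT PAX6+ libraries, which did not overlap (log2 fold change -0.37, SE 0.11, edgeR adjusted p = 0.0979). Dkk3, a divergent Dickkopf, had 22.5 to 39.1 CPM in KO and 20.6 to 43.5 CPM in WT PAX6+ libraries, which overlapped. Kremen2 had at most 9 reads in any library, and its exons overlap 9530082P21Rik on the other strand, which had 3962 reads over all libraries against 37 for Kremen2. The strand setting of the counting is not given in the sources used here.

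**Figure D4:**
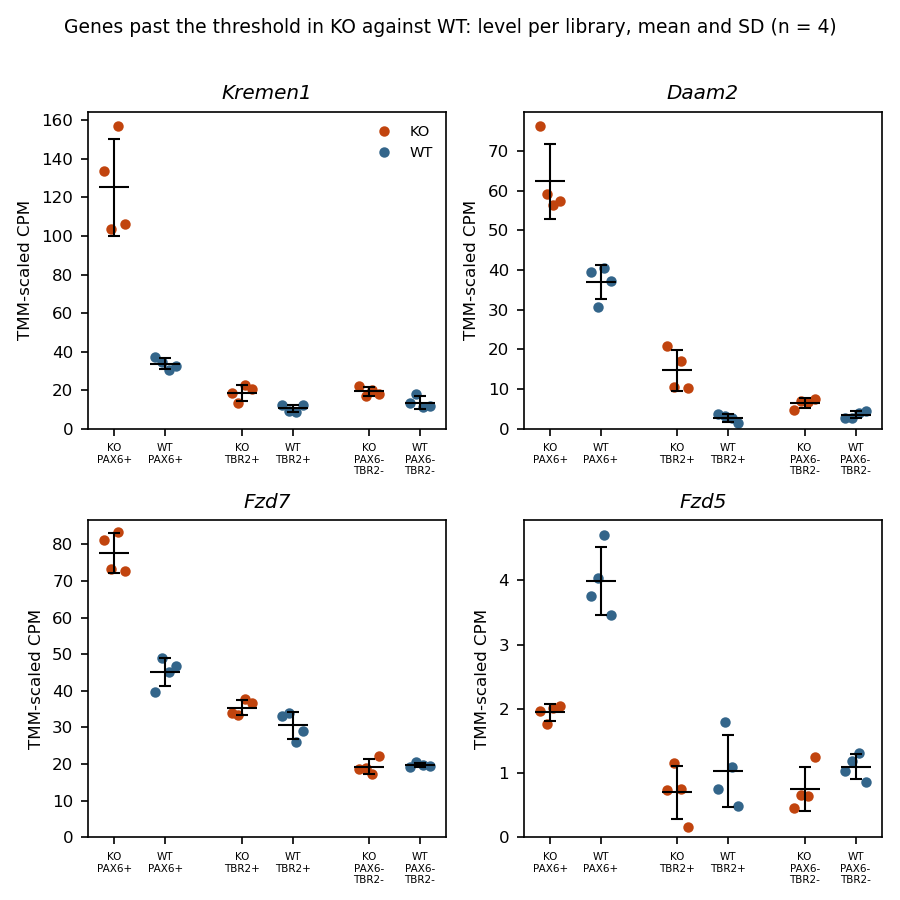
TMM-scaled CPM (y axis) of Kremen1, Daam2, Fzd7 and Fzd5 in each of the 24 libraries, by genotype and population; points are libraries, bars the mean and SD of 4. KO PAX6+ libraries lie at 104 to 157 CPM of Kremen1, above the 30.2 to 37.1 CPM of WT PAX6+ libraries, and Fzd5 stays below 5 CPM throughout.

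Among the cytoplasmic transducers Daam2 was the gene that passed in edgeR with low counts filtered and no replicate block. It encodes a formin that binds Dishevelled and acts on actin. Daam2 (ENSMUSG00000040260, chromosome 17, 49456022 to 49564343, minus strand) had 20.8, 10.6, 17.0 and 10.4 CPM in KO TBR2+ libraries, against 3.79, 3.10, 2.57 and 1.47 CPM in WT TBR2+ libraries. All KO libraries were above all WT libraries, and the WT values rest on 9 to 25 reads per library. The log2 fold change was 2.41 (SE 0.31, edgeR adjusted p = 0.000841), a 5.31-fold level, and it passed in all 8 fits without 1 library and all 7 other settings.

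In PAX6+ cells Daam2 had 76.2, 59.2, 56.4 and 57.5 CPM in KO libraries, against 39.5, 30.7, 40.4 and 37.3 CPM in WT libraries. The genotypes did not overlap here either. KO over WT, this was a log2 fold change of 0.76 (SE 0.13, edgeR adjusted p = 0.00164). In PAX6-TBR2- cells Daam2 had 4.65, 7.03, 6.74 and 7.51 CPM in KO libraries and 2.69, 2.70, 4.07 and 4.35 CPM in WT libraries, again without overlap, but the log2 fold change of 0.84 (SE 0.24) did not pass (edgeR adjusted p = 0.544). In WT its log2 fold change was 3.73 (SE 0.21, adjusted p = 5.32e-11) for PAX6+ over TBR2+ and 3.30 (SE 0.18, adjusted p = 2.68e-10) for PAX6+ over PAX6-TBR2-. Kremen1 was also higher in WT PAX6+ cells, by 1.66 (SE 0.15, adjusted p = 2.90e-08) over TBR2+ and 1.33 (SE 0.16, adjusted p = 1.83e-06) over PAX6-TBR2-.

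The stretch upstream of Daam2 (GRCm38.p6, chr17:49564338-49564587, minus strand, for the first of 2 starts listed by RefSeq) is shown because Daam2 was higher in KO in both PAX6+ and TBR2+ cells. It held 0 matches to the Tcf/Lef motif, and G and C made up 58.4% of it, with 10 CpG.
Daam2: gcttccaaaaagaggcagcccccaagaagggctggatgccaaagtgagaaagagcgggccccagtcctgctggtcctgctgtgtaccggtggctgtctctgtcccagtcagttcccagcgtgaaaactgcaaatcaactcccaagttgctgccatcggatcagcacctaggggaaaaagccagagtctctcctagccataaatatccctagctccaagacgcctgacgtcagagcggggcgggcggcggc
No match says only that these letters are not in this window.

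Its paralog Daam1 lay at 10.3 to 23.3 RPKM in the 6 groups, and its KO log2 fold changes were 0.15 in PAX6+, 0.15 in TBR2+ and 0.002 in PAX6-TBR2- cells. The Dishevelled genes Dvl1, Dvl2 and Dvl3 had KO log2 fold changes between -0.31 and -0.024 in the 3 populations, with none passing. Axin2, a scaffold of the degradation complex and a standard readout gene of canonical signalling, averaged 41.4 ± 6.19 CPM in KO and 48.7 ± 4.31 CPM in WT PAX6+ cells (SD, n = 4 each; log2 fold change -0.22, 95% interval -0.47 to 0.025, edgeR adjusted p = 0.543). In TBR2+ cells its log2 fold change was -0.15 (95% interval -0.49 to 0.18) and in PAX6-TBR2- cells 0.19 (95% interval -0.21 to 0.58). Axin1 and Apc, the other scaffolds, did not pass in any population.

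Nkd1, an inhibitor that binds Dishevelled and another readout gene, had 44.8, 38.9, 48.1 and 37.1 CPM in KO TBR2+ libraries, against 31.9, 26.4, 13.4 and 28.3 CPM in WT TBR2+ libraries. The groups did not overlap, and the log2 fold change of 0.74 (SE 0.20) missed the threshold in edgeR (adjusted p = 0.0847). It passed with DESeq2 (0.0174), without a filter on low counts (3.36e-05) and with the replicate block, but not with limma-voom (0.0843) or all 24 libraries in 1 fit (0.133). In PAX6+ cells Nkd1 lay on the other side of 0, lower in KO, and did not pass. Its KO effect in PAX6+ minus TBR2+ cells was -1.19, which did not pass in edgeR (adjusted p = 0.264) but did without a filter on low counts (0.000628). Apc was the most abundant transducer per kilobase in each WT population, at 18.8 RPKM in PAX6+, 35.8 RPKM in TBR2+ and 90.8 RPKM in PAX6-TBR2- cells. The log2 fold change of Apc was -2.28 (SE 0.090, adjusted p = 8.41e-12) for WT PAX6+ over WT PAX6-TBR2-. Daam1, Dvl3, Apc and Nkd1 were the 4 transducers lower in WT PAX6+ cells than in each other population.

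The nuclear effectors showed no KO call in edgeR fitted on each population's own libraries, with low counts filtered and no replicate block. Ctnnb1, which encodes β-catenin, averaged 121 RPKM in KO and 129 RPKM in WT PAX6+ cells, 109 RPKM in KO and 115 RPKM in WT TBR2+ cells, and 67.7 RPKM in KO and 67.9 RPKM in WT PAX6-TBR2- cells. Its KO log2 fold changes were -0.090 (95% interval -0.31 to 0.13), -0.088 (-0.29 to 0.11) and -0.007 (-0.21 to 0.19) in the same order of populations. Lef1, an activator on β-catenin targets and a target itself, had 103, 89.8, 95.8 and 72.9 CPM in KO TBR2+ libraries and 76.7, 73.2, 38.1 and 74.0 CPM in WT TBR2+ libraries. WT replicate 3 was the lowest, and the groups overlapped at the ends of their ranges (log2 fold change 0.46, SE 0.18, edgeR adjusted p = 0.308, and 0.00930 without a filter on low counts). Lef1 passed there with the replicate block too.

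Tcf7l1, a Tcf factor known mainly as a repressor, had the largest difference between WT populations among these factors. WT PAX6+ libraries had 84.9, 83.0, 87.5 and 56.6 CPM, WT TBR2+ libraries 7.58, 8.97, 5.50 and 6.22 CPM and WT PAX6-TBR2- libraries 4.35, 8.96, 3.28 and 8.01 CPM. The PAX6+ population was far above the other two in each library, at 3.58 (SE 0.24, edgeR adjusted p = 2.56e-09) over PAX6-TBR2- on the log2 scale. KO PAX6+ libraries had 85.7, 71.6, 77.0 and 55.8 CPM and overlapped with WT. KO TBR2+ libraries had 9.43 to 19.2 CPM, each above the 4 WT TBR2+ libraries, and the log2 fold change of 0.98 (SE 0.24) missed the threshold in edgeR (adjusted p = 0.0570). Tcf7l1 passed there with DESeq2 (0.0135), without a filter on low counts (0.000546), with the replicate block and with all 24 libraries in 1 fit (0.0411). It did not pass with limma-voom (0.0960).

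Tcf7l2, another Tcf factor, had 84.8 to 115 CPM in WT PAX6+, 34.3 to 54.8 CPM in WT TBR2+ and 6.56 to 14.1 CPM in WT PAX6-TBR2- libraries. Tcf7 was higher in WT PAX6+ cells than in WT TBR2+ cells (2.05, SE 0.29, edgeR adjusted p = 7.84e-06), and its difference from WT PAX6-TBR2- cells did not pass (adjusted p = 0.0924). All 5 nuclear effectors lay above 0 in WT PAX6+ over each other population, and 3 of 5 passed against TBR2+ and 4 of 5 against PAX6-TBR2-. Over all genes 63.2% and 66.6% passed in these comparisons, and 32.2% and 33.7% of all genes passed as higher in PAX6+.

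**Figure D5:**
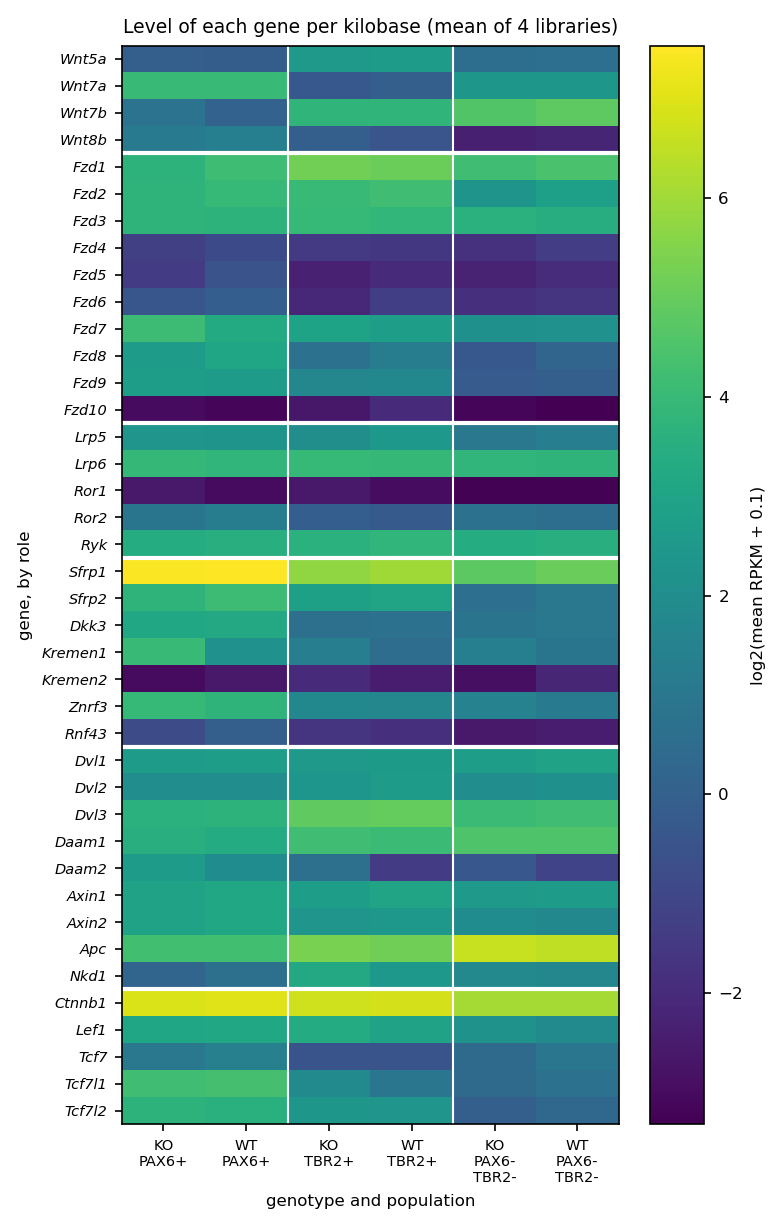
Mean level of each Wnt gene per kilobase (colour, log2 of the mean RPKM of 4 libraries + 0.1) in the 6 groups, with genes by role down the page. Sfrp1 and Ctnnb1 have the highest levels in PAX6+ cells, Apc has the highest in PAX6-TBR2- cells, and Kremen1 and Fzd7 are higher in KO than in WT PAX6+ cells.

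Whether the KO effect itself differed between populations was tested as an interaction. Between PAX6+ and TBR2+ cells 2 of 37 members differed, against 0.612% of all genes (0.399% above 0 and 0.213% below 0). Kremen1 rose more in PAX6+ cells, with a difference of log2 fold changes of 1.07 (SE 0.24, edgeR adjusted p = 0.0365), and Daam2 rose more in TBR2+ cells, with -1.66 (SE 0.33, adjusted p = 0.0122). Neither passed with limma-voom (adjusted p = 0.102 for Kremen1 and 0.0778 for Daam2). The Kremen1 difference was also lost without KO PAX6+ replicate 1 or 3, WT PAX6+ replicate 2, 3 or 4, KO TBR2+ replicate 2, or WT TBR2+ replicate 1 or 4 (adjusted p 0.0574 to 0.115).

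Between PAX6+ and PAX6-TBR2- cells 2 of 37 differed, against 0.775% of all genes (0.576% above 0 and 0.199% below 0): Kremen1 (1.35, SE 0.22, edgeR adjusted p = 0.00223) and Fzd7 (0.82, SE 0.15, adjusted p = 0.00791). Both held in all 16 fits without 1 library and in limma-voom. Wnt7b was the gene added without a filter on low counts (3 of 40, against 0.783% of all genes), with a difference of 1.04 (adjusted p = 0.00507, against 0.321 with the filter). With the filter, leaving out single libraries moved the Wnt7b difference between 0.51 and 1.17. Its adjusted p was highest, at 0.624, without KO PAX6+ replicate 3, which stood apart for Wnt7b. Between TBR2+ and PAX6-TBR2- cells 0 of 34 passed in edgeR, against 0.051% of all genes (0.0291% above 0 and 0.0219% below 0). There 3 of the 34 had an unadjusted p under 0.05, against 4.94% of all genes, and DESeq2 and limma-voom called 0. Daam2 was 1.57 in that comparison (SE 0.41, edgeR adjusted p = 0.317). Fzd7 did not pass between PAX6+ and TBR2+ cells (0.58, SE 0.15, adjusted p = 0.113). Fzd5 did not pass against TBR2+ cells (adjusted p = 0.9999) or against PAX6-TBR2- cells (0.964). With too few Fzd5 reads outside PAX6+ cells for a KO test there, these interactions could hardly show a difference and do not speak of a shared effect.

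A wider list of 90 other Wnt pathway genes, 89 of them found in the tables, was read for comparison. In PAX6+ cells 60 were tested, 4 were higher and 1 was lower in KO, 5 in all against 3.64% of all genes. With the replicate block 15 of 60 passed, 8 higher and 7 lower, against 7.35% of all genes in that fit. The added genes that were higher were Celsr2 (log2 fold change 0.41, edgeR adjusted p = 0.000333), Apc2, Apcdd1 and Myc (0.40, 0.60 and 0.60). Those that were lower were Celsr1 (-0.34, adjusted p = 0.00175), Celsr3, Tle3, Aes, Tpbg and Vangl2 (between -0.69 and -0.22). Celsr and Vangl proteins belong to the planar polarity branch. Nkd2, the paralog of Nkd1, averaged 16.5 ± 2.71 CPM in KO and 5.51 ± 0.826 CPM in WT (SD, n = 4 each; log2 fold change 1.59, SE 0.18, edgeR adjusted p = 4.74e-05). Sfrp4, another secreted frizzled-related gene, averaged 20.4 ± 3.63 CPM in KO and 7.71 ± 2.43 CPM in WT (1.41, SE 0.22, adjusted p = 0.000864). Neither gene's groups overlapped.

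Ankrd6, which encodes a partner of Dishevelled and Axin, averaged 89.8 ± 10.4 CPM in KO and 143 ± 10.1 CPM in WT PAX6+ cells (SD, n = 4 each; log2 fold change -0.67, SE 0.10, edgeR adjusted p = 0.00102). Invs, which encodes inversin, a protein of the primary cilium (0.51, SE 0.12, adjusted p = 0.0265), and Tle2, a Groucho co-repressor (1.67, SE 0.41, adjusted p = 0.0329), were the other genes that passed. Each was lost in 5 of 8 fits without 1 library. For Invs these were the fits without KO replicate 1, 2 or 3 or WT replicate 3 or 4 (adjusted p up to 0.116), and for Tle2 without KO replicate 1 or 3 or WT replicate 1, 2 or 4 (up to 0.105).

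In TBR2+ cells 2 of 56 of the wider list passed in edgeR, against 1.76% of all genes. DESeq2 called 4 of 56, adding Draxin and Nkd2, against 2.86%, and without a filter on low counts 7 of 84 passed, adding Dact1, Prickle1 and Tle4 to these, against 2.92%. Ankrd6 was lower at 182 ± 11.3 CPM in KO, against 256 ± 6.86 CPM in WT (SD, n = 4 each; log2 fold change -0.50, SE 0.084, edgeR adjusted p = 0.00566). Tle1, a Groucho co-repressor that binds Tcf factors, was higher at 37.5 ± 4.69 CPM in KO, against 21.8 ± 2.30 CPM in WT (0.78, SE 0.13, adjusted p = 0.00586). In PAX6-TBR2- cells 0 of 54 passed in edgeR, against 0.00774% of all genes, and DESeq2 and limma-voom called 0. An unadjusted p under 0.05 was found for 7 of the 54, against 6.61% of all genes. The KO effect differed between PAX6+ and TBR2+ cells for Tle1 (-0.82, SE 0.15, adjusted p = 0.00715) and between PAX6+ and PAX6-TBR2- cells for Nkd2 (1.37, SE 0.25, adjusted p = 0.00572). The median log2 fold change of the wider list was -0.012 in PAX6+, 0.028 in TBR2+ and 0.007 in PAX6-TBR2- cells.

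Markers of other cell types moved with genotype in PAX6+ cells, and their part in the changes of Kremen1, Fzd7, Daam2 and Fzd5 was not tested. Among radial glia markers 6 of 8 were above 0 (median 0.27) and Slc1a3 passed (0.43, SE 0.11, edgeR adjusted p = 0.0354). Among intermediate progenitor markers 4 of 5 tested were below 0, and Eomes (-0.74, adjusted p = 0.0358) and Insm1 (-0.52, adjusted p = 0.0174) passed, at a summed 291 to 395 CPM in KO and 311 to 461 CPM in WT. Of neuron markers 6 of 8 were below 0 and Dcx passed (-1.01, adjusted p = 0.00809), while the summed level of the list was 385 to 397 CPM in KO and 375 to 447 CPM in WT.

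Endothelial and mural markers were below 0 in 7 of 7 tested of 10 (median -0.72), and Slco1c1 passed (-2.03, edgeR adjusted p = 0.0345). Their summed level was 6.80 to 33.9 CPM in KO and 15.8 to 47.0 CPM in WT PAX6+ libraries, with no gene at 0 in all libraries of a group. Cajal-Retzius markers were below 0 in 5 of 5 tested of 8 (median -1.33) with none passing, at a summed 22.4 to 105 CPM in KO and 41.2 to 333 CPM in WT. Interneuron markers were below 0 in 4 of 5 tested of 9, with Gad2 passing (-1.68, adjusted p = 0.0186), at 89.6 to 112 CPM in KO and 82.5 to 122 CPM in WT. Both meningeal markers tested, of 7, were below 0 and Col1a2 passed (-2.06, adjusted p = 0.0124), at a summed 1.23 to 3.83 CPM in KO and 3.62 to 4.81 CPM in WT, with Lum and Foxd1 at 0 in both genotypes.

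In TBR2+ cells Cajal-Retzius markers were above 0 in 8 of 8 (median 0.58) with none passing, at a summed 436 to 669 CPM in KO and 160.2 to 634 CPM in WT. Radial glia markers there were above 0 in 5 of 7 tested (median 0.22) with none passing, at 469.6 to 711 CPM in KO and 440.4 to 629 CPM in WT. The largest of these were Slc1a3 (0.69, edgeR adjusted p = 0.0786) and Sox2 (0.68, adjusted p = 0.0945, without overlap of the groups). Intermediate progenitor markers were below 0 in 5 of 6 (median -0.16) with none passing, at 1368 to 1726 CPM in KO and 1509.5 to 1852 CPM in WT. The part of these markers in the changes of Daam2 and Kremen1 in TBR2+ cells was not tested.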

How the data were processed

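RNA was measured by RNA-seq in 24 libraries of sorted mouse cortical cells, 4 per genotype and population. The deposited tables hold whole-number counts per gene and lane, made by the authors; per the submitters' processing notes reads went through FastQC, cutadapt, STAR and featureCounts on mm10, and DESeq2, with no versions given. Per the labels' protocols RNA was recovered from fixed cells and amplified by SPIA, and no molecular identifiers are named, so reads are not independent molecules. The authors also deposited a normalized signal table, whose values came out as whole reads within a tolerance of 1e-06; those reads sum to 1.44 to 1.70 times the raw counts of the same group in the TBR2+ and PAX6-TBR2- tables, and were used as an alternative only.

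The 2 lanes of a library were summed. Levels are CPM after TMM scaling over all 24 libraries, and RPKM per exon length in GENCODE M21. Each comparison was fitted on its own libraries across all genes (R 4.3.3, edgeR 4.0.16: filterByExpr, TMM, quasi-likelihood F test, Benjamini-Hochberg over all genes tested, threshold 0.05), and interactions on the 4 groups they involve. 95% intervals come from the SE by the normal quantile. The steps were tested on simulated data. Alternatives were DESeq2 1.42.0, DESeq2's size factors, limma-voom (limma 3.58.1), no filter, a replicate block, all 24 libraries in 1 fit, the recovered reads, and leaving out each library. Replicate numbers come from the labels. KO and WT PAX6+ libraries of the same number correlated in their deviations at r = 0.159 to 0.361, over 0.1 in every pair. The blocked values therefore stand beside the KO against WT results in PAX6+ cells. For same-numbered libraries r was 0.0455 to 0.408 in TBR2+ cells and 0.0819 to 0.365 in PAX6-TBR2- cells, not over 0.1 in every pair. In TBR2+ cells KO replicates 2 and 3 correlated less with their own number (0.0593 and 0.0455) than with another (up to 0.0609 and 0.128). The remaining KO libraries of all populations correlated most with their own number. Most blocked values of these populations, with those of the interactions, are in the closing section. The genes named are the members past the threshold and, per role, those with the largest difference between WT populations, with readout genes and those of non-overlapping groups added after their values were seen. The members, the wider list and the marker lists were chosen with earlier results of these data known. Kremen1 and 13 other members have no promoter in the RefSeq table. Sequences from chromosome 18 were not used.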

Additional observations from a re-analysis of the deposited data

Results flagged for a closer look

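In 10 of 206 sets of 4 libraries with at least 40 reads of a gene, 1 library lay farther from the others than Dixon's 95% limit, which chance alone does in about 1 in 20 sets. In KO PAX6+ cells these were replicate 3 for Wnt7a (60.08 CPM, the others 49.8) and for Wnt7b (15.26 CPM, the others 5.18 to 6.27), and replicate 1 for Daam2 (76.25 CPM, the others 56.4 to 59.2) and for Tcf7 (7.325 CPM, the others 4.28 to 4.65). In WT PAX6+ cells replicate 4 had 56.58 CPM of Tcf7l1, against 83.0 to 87.5 CPM in the others. In WT TBR2+ cells replicate 3 had 145 CPM of Daam1, against 131 to 133 CPM in the others, and 38.13 CPM of Lef1, against 73.2 to 76.7 CPM in the others. In KO PAX6-TBR2- cells replicate 3 had 31.31 CPM of Dvl2, against 21.7 to 22.5 CPM in the others. In WT PAX6-TBR2- cells replicate 3 had 13.91 CPM of Znrf3, against 16.7 to 16.9 CPM in the others, and replicate 4 had 16.64 CPM of Nkd1, against 13.2 to 13.5 CPM in the others.

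The KO effect differed between populations by an interaction term for 3 genes. Between PAX6+ and TBR2+ cells the difference of log2 fold changes was 1.074 for Kremen1 and -1.656 for Daam2. Between PAX6+ and PAX6-TBR2- cells it was 1.35 for Kremen1 and 0.8175 for Fzd7.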

How the results depend on the processing

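Over the fold changes of the named genes in all alternatives run, 5304 stayed on their side of the threshold, and 54 passed it and 58 lost it only in an alternative. Of those that passed with or without the alternative, 0 changed direction. The direction of those that passed in neither was not compared. For KO against WT in PAX6+ cells the member count of 4 became 8 with DESeq2 and 8 with the replicate block, and 3 to 4 without 1 library. In TBR2+ cells the count of 2 became 4 with DESeq2, 1 with limma-voom, 1 with the recovered reads, 6 without a filter on low counts and 6 with the replicate block (adding Nkd1, Tcf7l1, Lef1 and Lrp5), and 1 to 2 without 1 library. In PAX6-TBR2- cells the count of 0 became 1 with the replicate block (Fzd2) and stayed 0 to 0 without 1 library. For the KO effect in PAX6+ minus TBR2+ cells the count of 2 became 4 with DESeq2, 0 with limma-voom, 5 without a filter and 4 with the replicate block, and 1 to 3 without 1 library. For PAX6+ minus PAX6-TBR2- the count of 2 became 3 with the block (adding Wnt7b). For TBR2+ minus PAX6-TBR2- the count of 0 became 2 without a filter and 2 with the replicate block. The wider list gave 7, against 2, with the block in TBR2+ cells. The causes were not tested. Over all genes the replicate block moved the calls to 1045, against 517, in PAX6+ cells, to 720, against 223, in TBR2+ cells and to 153, against 1, in PAX6-TBR2- cells; without a filter they were 728 in TBR2+ and 38 in PAX6-TBR2- cells, with DESeq2 363 and 25, and with all 24 libraries in 1 fit 6 in PAX6-TBR2- cells. For interactions the block gave 323, against 89, for PAX6+ minus TBR2+ (without a filter 329, DESeq2 160), 332, against 117, for PAX6+ minus PAX6-TBR2- (without a filter 219) and 210, against 7, for TBR2+ minus PAX6-TBR2- (without a filter 126, DESeq2 28). Leaving out 1 library gave between 358 and 529 calls over all genes for PAX6+ cells, between 121 and 420 for TBR2+ cells and between 1 and 3 for PAX6-TBR2- cells. Same-numbered TBR2+ libraries correlated at 0.0455 to 0.408 and PAX6-TBR2- libraries at 0.0819 to 0.365. KO TBR2+ replicates 2 and 3 correlated less with their own number than with another. Genes with few reads, such as Fzd5 and Rnf43 outside PAX6+ cells, are limited by depth.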
